A study of Schizosaccharomyces pombe with 8 samples.

Results

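The genes described here take iron and heme into cells of the fission yeast *Schizosaccharomyces pombe*, together with the gene of their shared repressor. They are 9 of the 5129 genes listed in each of 2 deposited tables: *sib1* (SPAC23G3.02c), *sib2* (SPAC23G3.03), *str1* (SPBC4F6.09), *str3* (SPAC1F8.03c), *shu1* (SPAC1F8.02c), *frp1* (SPBC1683.09c), *fio1* (SPAC1F7.08), *fip1* (SPAC1F7.07c) and *fep1* (SPAC23E2.01). They were found by their systematic names, and all 9 were present in both tables. The set had been chosen by name with earlier fold changes of these libraries known, and those fold changes are not used here.

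Poly(A) RNA was sequenced in 8 libraries, 2 for each of 4 groups. The group labelled WT carries no named mutation, and the group labelled seb1-1 carries a mutant allele of *seb1*, the gene of a factor that binds nascent RNA and acts in forming the 3′ ends of transcripts. The group labelled epe1KO has the strain entry epe1delta, a deletion of the anti-silencing gene *epe1*. The group labelled epe1KO_tfs1DN carries the same deletion with tfs1DN, a dominant-negative allele of the TFIIS gene *tfs1*. Its mutations prevent cleavage of the RNA by the polymerase. The allele is driven at *leu1* by the thiamine-repressible *nmt1* promoter, and the study describes leaky repression in thiamine. A single isolate of that strain was used, and cells grew in a rich glucose medium. Whether the 2 libraries of a group are separate cultures is not stated in the labels.

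The study asked what seb1-1 changes against WT and what tfs1DN changes in the epe1 deletion background. For the iron genes neither question can be answered from the values used here, because each table gives 1 mean per gene over the 4 libraries of both its groups. What the means do show is how high each gene stood in the libraries labelled WT and seb1-1 (the WT pair) and in those labelled epe1KO and epe1KO_tfs1DN (the epe1KO pair). No value per library was used, so the depth of a library is unknown and no level carries an error, a replicate number or a test. Added over all genes, the means come to 22456953 normalized counts in the WT pair and 15644260 in the epe1KO pair. For the targeted gene *epe1* (SPCC622.16c) the authors' mean was 712 in the WT pair and 706 in the epe1KO pair, so these counts go against the label if the whole gene was meant to be deleted. The auxotrophic marker *ura4* (SPCC330.05c) had an authors' mean of 2022 in the WT pair and 7.98 in the epe1KO pair, so the pairs also differ at this marker. For *seb1* the authors' means were 3558 and 3032, for *tfs1* 2149 and 2473 and for *leu1* 9767 and 13643, WT pair first.

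Fission yeast obtains iron by separate routes that are repressed together when iron is plentiful. In the reductive route the ferric reductase Frp1 releases ferrous iron at the cell surface, and the ferroxidase Fio1 passes it to the permease Fip1. In the siderophore route Sib2 and the peptide synthetase Sib1 build ferrichrome, a small iron chelator, and Str1 carries it back into the cell with iron. Str3 is a further transporter, whose substrate was not tested here. Shu1 is a surface protein that takes up heme. The GATA-type factor Fep1 binds the sequence AGATAA or TGATAA in front of these genes and represses them in iron-replete cells with the corepressors Tup11 and Tup12.

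The upstream sequences of the members are shown because Fep1 is known to act through such elements, and the members differ in how many they hold and where. They were read from the RefSeq assembly ASM294v3, whereas the labels name ASM294v2, so distances from the annotated start of each gene are given and no coordinates. Each stretch runs 5′ to 3′ on the strand of the named gene, and capitals mark AGATAA or TGATAA on either strand (TTATCT or TTATCA when read on the gene's strand). The first line holds the 250 bases before *fio1* on the forward strand of chromosome I, most of the 303 bases that separate *fio1* from *fip1*, which is read in the other direction. The other lines hold the largest group of elements of each gene, the one nearest the start where groups were equal, with 15 bases on either side, leaving aside elements within 10 bases of the start.
fio1 and fip1: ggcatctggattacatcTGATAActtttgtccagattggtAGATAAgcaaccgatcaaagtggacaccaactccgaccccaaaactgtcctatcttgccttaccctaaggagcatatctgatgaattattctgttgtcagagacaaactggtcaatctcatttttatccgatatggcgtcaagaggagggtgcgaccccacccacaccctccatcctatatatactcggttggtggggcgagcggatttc
shu1: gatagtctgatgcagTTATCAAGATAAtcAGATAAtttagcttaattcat
frp1: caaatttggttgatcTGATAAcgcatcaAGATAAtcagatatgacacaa
str1: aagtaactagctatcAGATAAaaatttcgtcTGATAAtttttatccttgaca
sib1 and sib2: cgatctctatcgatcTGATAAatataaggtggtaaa
str3: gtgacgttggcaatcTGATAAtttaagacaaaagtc
fep1: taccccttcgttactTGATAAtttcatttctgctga

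Of the 9 members, 6 held AGATAA or TGATAA between 250 bases before and 50 bases after the annotated start, beside 44.1% of the 5111 listed genes that could be placed on the reference. Within 1000 bases upstream, a window added after the data were seen, all 9 held it, as did 86.9% of all genes, so that count is near the background. Between 250 bases before and 50 bases after the start, 4 members held at least 2 such elements, *shu1*, *fio1*, *fip1* and *frp1*, beside 12.2% of all genes. Within 1000 bases 6 members held at least 2, beside 60.5% of all genes. In *shu1*, *fio1*, *fip1* and *frp1* a pair of elements in the shorter window began within 25 bases of each other. This arrangement was found there in 2.95% of all genes and was looked for after the sequences had been seen. Within 1000 bases it was found in 5 members and 9.43% of all genes. The *fio1* and *fip1* elements are the same sites, 233 and 210 bases before *fio1* and 76 and 99 bases before *fip1*. The 1 element between *sib1* and *sib2* is likewise shared, 306 bases before *sib1* and 808 bases before *sib2*. That of *str3* began 618 bases before the start.

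In the stretches of all 8 uptake genes, and not in that of *fep1*, the letters atc stand before an element, which makes the 9-base sequence ATCAGATAA or ATCTGATAA. This longer sequence was searched after it had been noticed, so its presence in the members is a description. It occurred on either strand within 1000 bases upstream of all 8 uptake genes and of 3.99% of all listed genes. Between 250 bases before and 50 bases after the start it occurred in 5 members, *str1*, *shu1*, *fio1*, *fip1* and *frp1*, beside 1.15% of all listed genes. Each 9-base match contains a 6-base element, so the 2 searches overlap. The copies of *fio1* and *fip1* are the same site, and so are those of *sib1* and *sib2*, so these genes are not separate finds. *shu1* and *frp1* held 2 copies each within 1000 bases, at 635 and 130 bases and at 388 and 96 bases before the start, and a further copy in *str1* ran across its start, from 7 bases before it. The repressor gene *fep1* held the 6-base element at 295 and 101 bases, and no 9-base copy within 1000 bases.

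**Figure D1:**
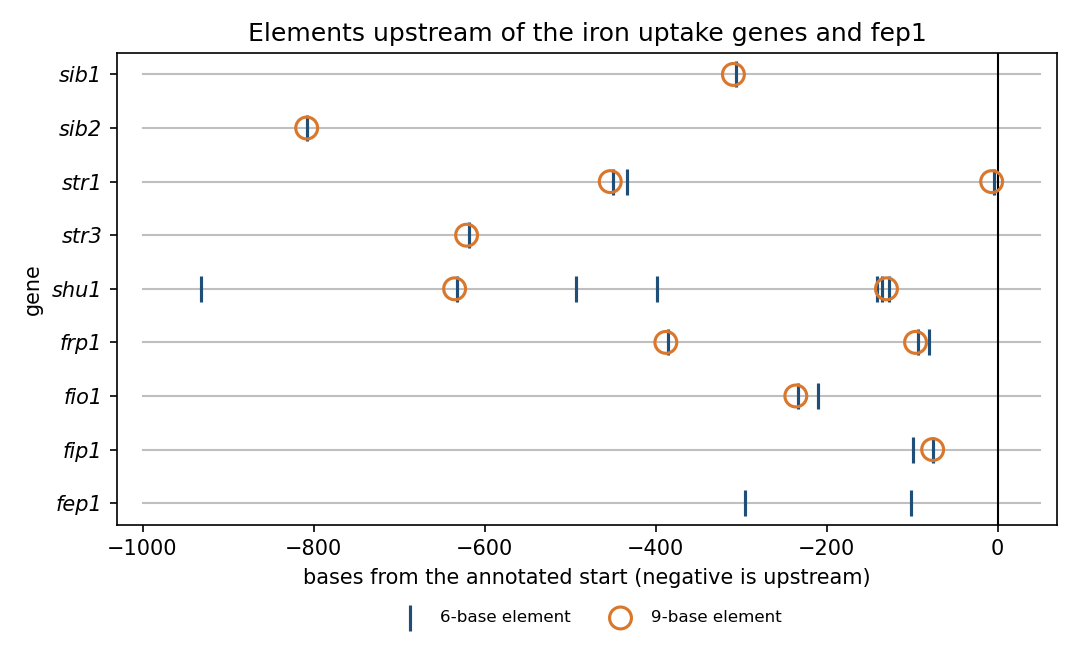
Positions of the 6-base element (AGATAA or TGATAA, blue ticks) and of the 9-base element (ATCAGATAA or ATCTGATAA, orange circles) on either strand, in bases from the annotated start of each gene (vertical line at 0). Circles appear in the rows of all 8 uptake genes, and the fep1 row holds ticks at 295 and 101 bases upstream with no circle.

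Of 12 other genes of iron handling on a list, 4 held the 9-base sequence in the shorter window, beside 1.15% of all listed genes. Also named after the search was seen, *zhf1* on a copper and zinc list and *rip1* on an iron-using list held it within 1000 bases. Of the 12 genes of iron handling 6 held it within 1000 bases, beside 3.99% of all listed genes. They are the transporter genes *str2* and *abc3*, the ferric reductase relative *frp2*, *php4*, which encodes a repressor of iron-using genes, *grx4*, which encodes a glutaredoxin that acts with both repressors, and *tup11*; they are named after the search was seen. The sequence CCAAT, which the complex of Php2, Php3, Php5 and Php4 binds, lay between 250 bases before and 50 bases after the start of 3 members, *fio1*, *fip1* and *fep1*, beside 42.2% of all genes.

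The levels of the members spanned a wide range. Levels of different genes are compared per kb of coding length, as the authors' mean normalized count divided by that length. In the WT pair *sib2* stood highest at 1259 per kb and *fep1* next at 1135 per kb, at percentiles 65.2 and 62.4 of the genes listed above 0. Then came *str1* at 566, *fio1* at 552 and *fip1* at 547 per kb, 3 values that lie close together, and *frp1* at 137 per kb. The order ended with *sib1* at 82.7, *str3* at 12.7 and *shu1* at 5.01 per kb. The highest stood 251 times above the lowest, *shu1*, whose level rests on an authors' mean of only 3.41 normalized counts. Since no spread between libraries was used, it is not known which neighbours in this order differ beyond it.

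In the epe1KO pair the order was different. The permease gene *fip1* stood highest at 1526 per kb, at percentile 68.3, followed by *sib2* at 975, *fio1* at 847, *fep1* at 782 and *str1* at 777 per kb. Below them were *frp1* at 305, *str3* at 105, *sib1* at 74.9 and *shu1* at 62.1 per kb. The range from highest to lowest was 24.6 times here, again down to *shu1*, so both ranges depend on that gene of low counts. The median gene of each table lay at 731 per kb in the WT pair and 791 per kb in the epe1KO pair, so 7 of the 8 uptake genes stood below it in the WT pair and 5 of the 8 in the epe1KO pair. Without division by length, 4 and 3 of the 8 lay below the median of the means. The long gene *sib1* moved most, from percentile 6.23 per kb to 61.2 in the WT pair and from 5.09 to 57.2 in the epe1KO pair.

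**Figure D2:**
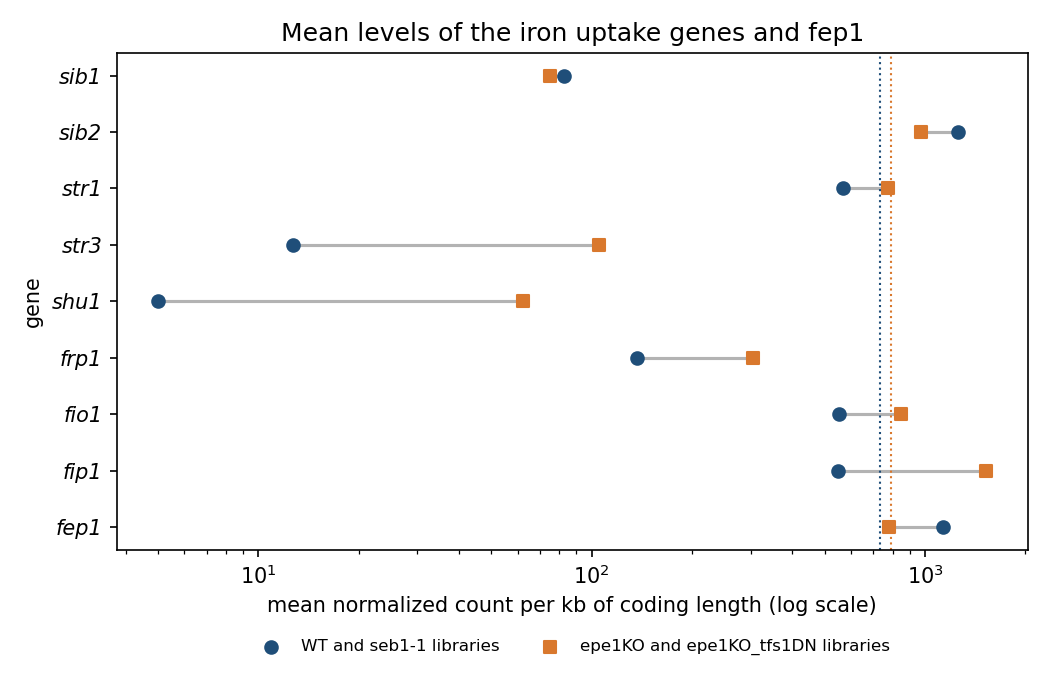
Authors' mean normalized count per kb of coding length (log axis) of each gene, over the 4 libraries labelled WT and seb1-1 (blue circles) and the 4 labelled epe1KO and epe1KO_tfs1DN (orange squares), with the median gene of each table as a dotted line. The longest lines belong to shu1, from 5.01 to 62.1, and str3, from 12.7 to 105, while sib1 moved from 82.7 to 74.9.

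The tables were normalized separately, so a ratio between them depends on a common scale. Scaled to the sum of all listed means, the median gene was 0.63 higher on the log2 scale in the epe1KO pair, and the 20 genes with the highest means took 25.4% of the sum in the WT pair and 16.3% in the other. Ratios are therefore given relative to the median of the 4936 genes with a mean of at least 10 in both tables, and counts are given on both scales. A ratio compares 4 pooled libraries with 4 others that differ in the *epe1* label, in the *ura4* mean and in the presence of seb1-1 or tfs1DN libraries. These cannot be told apart, nor can fewer cells with a transcript from less of it per cell.

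The 2 genes with the lowest levels in the WT pair differed most between the pairs. The authors' mean of *shu1* was 3.41 normalized counts in the WT pair and 42.3 in the epe1KO pair, a log2 ratio of 3.52 relative to the median gene, which is 11.5-fold. For the transporter gene *str3* the authors' mean was 24.0 in the WT pair and 199.7 in the epe1KO pair. Its log2 ratio was 2.94 or 7.69-fold, at percentile 99.7 of all ratios. With a mean of 3.41, *shu1* was under the minimum of 10, and its ratio rests on low counts. These genes are next to each other on chromosome I, both on the reverse strand, with 1922 bases between them. The nearest listed gene beyond *str3*, *hhy1* (SPAC1F8.04c), had authors' means of 55.8 and 183 and a log2 ratio of 1.60. The hexose transporter gene *ght3* (SPAC1F8.01) beyond *shu1* had 81.4 and 84.7 and a log2 ratio of -0.05. On one side of the 2 members the neighbouring gene was thus also past 2-fold, and on the other it was near the median gene.

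Of the 3 genes of the reductive route, *fip1* and *frp1* were more than 2-fold higher in the epe1KO pair relative to the median gene, and *fio1* was not. The ferroxidase gene *fio1* had an authors' mean of 1032 in the WT pair and 1582 in the epe1KO pair, a log2 ratio of 0.50 relative to the median gene, at percentile 77.7. The permease gene *fip1* had 653 and 1822, a log2 ratio of 1.37 at percentile 96.8. The reductase gene *frp1* had 231 and 518, a log2 ratio of 1.05 at percentile 93.5. Although *fio1* and *fip1* share their upstream region, their balance was not the same in the pairs, with 0.99 times as much *fip1* as *fio1* per kb in the WT pair and 1.80 times in the epe1KO pair. A ratio between genes of 1 table needs no common scale. The neighbours of *frp1* did not follow it: the hexose transporter gene *ght4* (SPBC1683.08) on one side was at -1.75, with authors' means of 1337 and 429, and *pcl1* (SPBC1683.10c), which encodes a vacuolar iron transporter, at 0.31, with 2184 and 2935.

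The genes of the siderophore route, *str1*, *sib1* and *sib2*, were within 2-fold of the median gene, on both sides of it. The ferrichrome transporter gene *str1* had an authors' mean of 1041 in the WT pair and 1429 in the epe1KO pair, a log2 ratio of 0.34 at percentile 69.7. For ferrichrome synthesis, *sib1* had 1222 and 1106, a log2 ratio of -0.26 at percentile 35.7, and *sib2* had 1632 and 1264, a log2 ratio of -0.48 at percentile 24.3. The ratios of *sib1* and *sib2* turn positive when the tables are scaled to their sums, at 0.38 and 0.15. These 2 genes kept a like balance, with 0.066 times as much *sib1* as *sib2* per kb in the WT pair and 0.077 times in the epe1KO pair. The transporter gene *str3* stood at 0.022 times the level of *str1* per kb in the WT pair and at 0.136 times in the epe1KO pair.

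The repressor gene *fep1* had an authors' mean of 1924 in the WT pair and 1326 in the epe1KO pair, a log2 ratio of -0.65 at percentile 17.3, and of -0.02 with sum scaling. It was the lowest ratio of the 9, an order that the choice of scale cannot change. Each uptake gene can also be set against *fep1* within a table, which needs no common scale. Because *fep1* had the lowest ratio, all 8 stand higher against it in the epe1KO pair by construction, *sib1* and *sib2* included, and only the sizes are described. The mean count of *shu1* was 0.177% of that of *fep1* in the WT pair and 3.19% in the epe1KO pair, and that of *str3* was 1.25% and 15.1%. For *fip1* it was 33.9% and 137%, for *fio1* 53.6% and 119%, for *str1* 54.1% and 108%, and for *frp1* 12.0% and 39.1%. The smallest shifts were those of *sib1*, from 63.5% to 83.4%, and *sib2*, from 84.8% to 95.3%. Whether the level of *fep1* bears on the others was not tested.

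**Figure D3:**
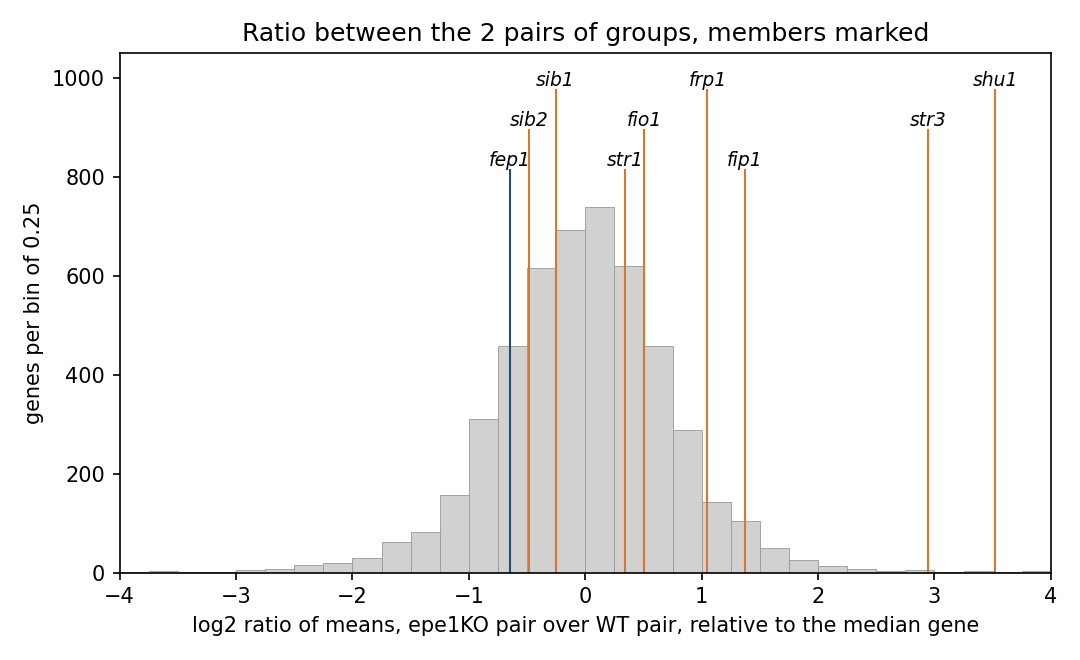
Log2 ratio of the authors' means, epe1KO pair over WT pair, relative to the median gene. Bars count genes with a mean of at least 10 in both tables in bins of 0.25, ratios beyond 4 on either side are not drawn, and lines mark the 8 uptake genes (orange) and fep1 (blue). The lines of str3 at 2.94 and shu1 at 3.52 stand in the right tail, and those of fep1, sib2 and sib1 lie left of 0. The gene shu1 is under the minimum in the WT pair and is not counted in the bars.

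Of the 8 members with a mean of at least 10 in both tables, 3 were more than 2-fold higher in the epe1KO pair relative to the median gene (*str3*, *fip1* and *frp1*), beside 7.31% of the 4936 genes, and 0 were more than 2-fold lower, beside 7.94%. Scaled to the sums, 4 were higher, with *fio1* added, beside 29.1% of all genes, and 0 lower, beside 2.33%. The ninth, *shu1*, was past 2-fold on both scales but under the minimum. Relative to the median gene 6 of the 9 members lay above 0 and 3 below, with a median of 0.50. All genes have a median of 0 by construction, and their quartiles are -0.46 and 0.44. The 9 include *shu1*, which is under the minimum that holds for the quartiles. Without it the middle of the members lies between *str1* at 0.34 and *fio1* at 0.50, on either side of the upper quartile. The members were chosen with results of these libraries in view, so their share is a description of the set.

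The other genes of iron handling lay on both sides of the median gene. Of 12 genes on that list, with transporters, regulators and corepressors, 7 lay above the median gene and 5 below, with a median log2 ratio of 0.08. More than 2-fold higher was 1 of them, beside 7.31% of all genes. This was *grx4*, with authors' means of 1167 and 3958 and a log2 ratio of 1.65. More than 2-fold lower were 2, beside 7.94% of all genes. These were *php2* at -1.50, with authors' means of 3779 and 1441, and *php5* at -1.32. Both encode subunits of the CCAAT-binding complex, and *php5* is named after its value was seen. The lowest level per kb on this list was that of *frp2*, at 33.1 in the WT pair and 67.8 in the epe1KO pair, with a log2 ratio of 0.92. Scaled to the sums 4 of the 12 were more than 2-fold higher, beside 29.1% of all genes, and 0 lower, beside 2.33%.

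Of 24 genes that use iron, in heme synthesis, iron-sulphur assembly and enzymes with these cofactors, 23 were matched by name. Relative to the median gene 8 lay above and 15 below, with a median log2 ratio of -0.20, which is 0.43 with sum scaling. Scaled to the sums 2 of the 23 were more than 2-fold higher, beside 29.1% of all genes, and 1 lower, beside 2.33%. Relative to the median gene 2 of them were more than 2-fold lower, beside 7.94% of all genes. One was *hem13* (SPAC222.11), a gene of heme synthesis, with authors' means of 9862 and 2889 and a log2 ratio of -1.88, and the other was the catalase gene *ctt1* at -1.18, named after its value was seen. More than 2-fold higher on that scale was 1, beside 7.31% of all genes. This was *isa2* (SPBC3B9.17), which acts in iron-sulphur assembly, with authors' means of 180 and 467 and a log2 ratio of 1.26. The highest level per kb on the list was that of the cytochrome c gene *cyc1*, at 31930 in the WT pair and 32662 in the epe1KO pair. The list stood at a median percentile of 89.2 per kb in the WT pair and 81.8 in the epe1KO pair, above the members' medians of 40.1 and 48.7.

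**Figure D4:**
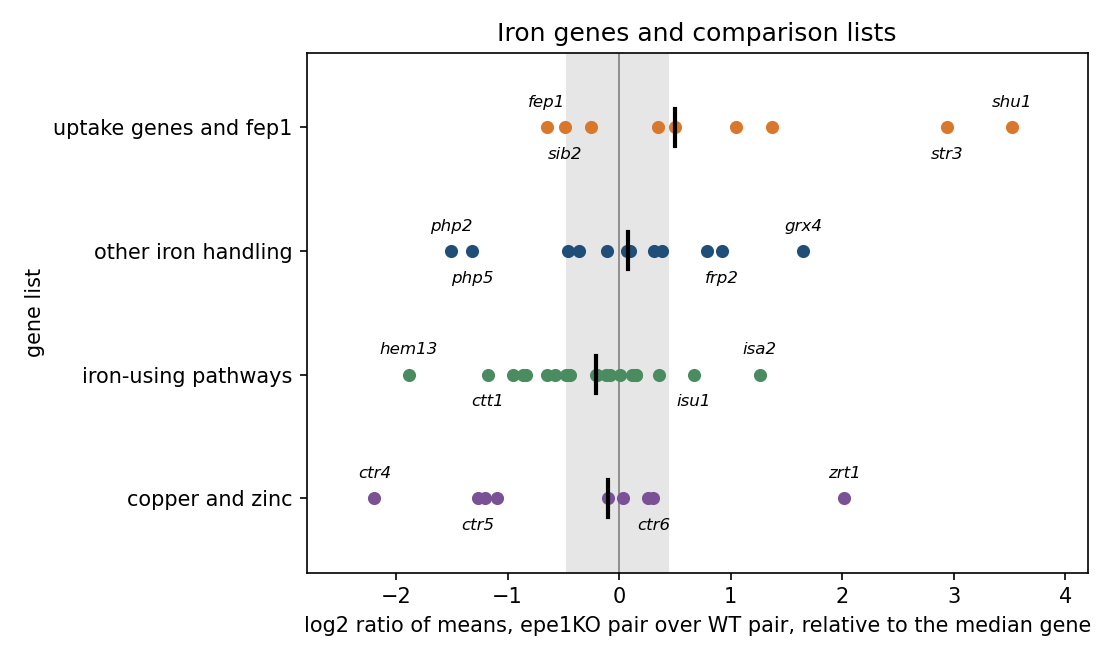
Log2 ratio of the authors' means, epe1KO pair over WT pair, relative to the median gene, for the members and 3 comparison lists, 1 point a gene with the list's median as a black bar; the grey band runs between the quartiles of all genes. The members reach 3.52 with shu1, whose mean of 3.41 in the WT pair is under the minimum of 10, and 2.94 with str3. The lists end at 1.65 (grx4), 1.26 (isa2) and 2.02 (zrt1).

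Genes that share the 9-base sequence with the members lay around the median gene. Besides the members, 187 genes with a mean of at least 10 in both tables held it within 1000 bases upstream. Their median log2 ratio was -0.03 relative to the median gene. On that scale 8 of them (4.28%) were more than 2-fold higher, beside 7.31% of all genes, and 11 (5.88%) lower, beside 7.94%. Scaled to the sums their median was 0.60, with 53 (28.3%) higher and 4 (2.14%) lower, beside the 29.1% and 2.33% of all genes. In the shorter window 53 such genes held it, with a median of 0.10 relative to the median gene. Of these 4 (7.55%) were more than 2-fold higher and 4 (7.55%) lower, beside the same 7.31% and 7.94%. Scaled to the sums 18 (34.0%) were higher and 3 (5.66%) lower, beside 29.1% and 2.33%.

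Reads from overlapping genes limit some of these values. Annotated transcripts on the opposite strand overlap *sib1* (7 of them), *str1* and *fep1* (3 each) and *sib2*, *str3*, *shu1* and *fio1* (1 each). The libraries were made with a directional kit, which keeps strand, but no source used here states whether counting used it. How far reads of the opposite strand enter the values of these genes is therefore unknown, and *fip1* and *frp1* have no such overlap. None of the 9 genes had another match of at least 100 bases at 90% identity in the reference.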

How the data were processed

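Poly(A) RNA was sequenced in 8 libraries, 2 in each of 4 groups taken from the sample titles. The authors aligned reads with TopHat and analysed them with DESeq2 on build ASM294v2, per the labels and the study's methods. The signal values used are the means that the authors deposited, over the 4 libraries of 2 groups after division by size factors. The other 5 columns of each table hold the authors' comparison (log2 fold change, standard error, Wald statistic, p-value, adjusted p-value) and were not used, so no test was run and differences within a pair are not reported.

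IDs were matched to RefSeq ASM294v3 (5111 of 5129) for symbols, neighbours, lengths and upstream sequence. Ratios between tables were computed over 4936 genes with a mean of at least 10 in both, with python 3.11.15, pandas 2.3.3 and numpy 2.4.6, and the ratio code was tested on simulated data. Copies were sought with blastn. Members and lists were chosen with earlier results of these data known. All members were named, with the extremes of each list in level and ratio, immediate neighbours, the targeted genes and *ura4*; of the neighbours those of *str3*, *shu1* and *frp1* are given, a choice made with values known. For the counting tool and for all versions: not given in the sources used here. Alternatives were other scalings, minimum means, folds, lengths and motifs (5 motif forms in 2 windows).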

Additional observations from a re-analysis of the deposited data

How the results depend on the processing

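No paired analysis was possible because the values used are means over both groups of a table and come from no test, and no library could be left out for the same reason. The count of members past 2-fold between the pairs was 4 with sum scaling, beside 29.1% of all genes higher and 2.33% lower. It was 3 with median scaling, beside 7.31% higher and 7.94% lower. It was also 3 without the 20 highest genes, and 5 without a minimum mean, where shu1 is counted, and at a fold of 1.5. Without the 20 highest genes, without a minimum or at a fold of 1.5, no share of all genes was computed. The count at a fold of 1.5 used sum scaling, where the median gene, 0.63 higher on the log2 scale, was itself past the cut. That count therefore does not set the members apart. The median log2 ratio of the 9 members, 1.14 with sum scaling, was 0.50 with median scaling and 0.96 without the 20 highest genes. Leaving out 1 member gave 1.41 without sib1, sib2, str1 or fep1, 1.33 without fio1, and 1.06 for each of the rest. The median percentile of the members rose without a length correction, from 40.1 to 55.5 in the WT pair and from 48.7 to 62.9 in the epe1KO pair. Of 71 percentiles of single members under alternatives, 62 lay within 10 points of the value per kb of coding length. The 6-base element was found in 6 members and 44.1% of all genes, the core GATAA in 7 and 59.5%, and ATGATAA in 0 and 8.86% in the same window. Chosen after seeing the data, a window of 1000 bases gave 9 members and 86.9% of all genes for the 6-base element, and the 9-base sequence gave 5 and 1.15% in the first window. Depth per library is unknown, which limits shu1 and str3 in the WT pair most.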

Other observations

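Genes of copper and zinc handling reached from -2.19 to 2.02 in their log2 ratio between the pairs, relative to the median gene. Of 9 genes, 4 lay above the median gene and 5 below, with a median log2 ratio of -0.10. The copper transporter gene *ctr4* had authors' means of 9776 in the WT pair and 2309 in the epe1KO pair, a log2 ratio of -2.19, and its partner *ctr5*, named after its value was seen, was at -1.27. The zinc transporter gene *zrt1* had authors' means of 3358 and 14678, a log2 ratio of 2.02. More than 2-fold lower were 4 of the 9, beside 7.94% of all genes, and more than 2-fold higher was 1, beside 7.31%. With sum scaling 1 was lower, beside 2.33%, and 1 higher, beside 29.1%. The lowest level per kb was that of *ccc2*, a copper transporter gene, at 375 in the WT pair and 416 in the epe1KO pair.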
